A study of Mus musculus with 6 samples.

Results

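Major urinary proteins are small secreted proteins of the mouse liver, encoded by a cluster of near-identical genes. Their transcripts were measured in Abcg8 knockout mice, in liver and adrenal gland, after diets with different sterols. The 10 rows Mup1, Mup3, Mup7, Mup10, Mup14, Mup15, Mup17, Mup19, Mup20 and Mup21 were taken by name from the 33639 gene rows of the deposited tables. They were chosen by name and selected on 1 measured value, the Mup15 row at 0 in the high sitosterol and stigmasterol livers, so those zeros are a description and carry no weight here. The other 38 rows with a Mup name, 11 numbered genes and 27 pseudogenes, appear only as a sum or where a member shares its sequence with them.

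The 6 libraries came from 4 livers and 2 adrenal glands of mice labelled male. All carried a global deletion of Abcg8, the control groups as well. Up to weaning the animals received a low sterol diet containing 0.005% ezetimibe, an inhibitor of sterol uptake from the gut. For the next 12 weeks each group ate a diet with low sitosterol, high sitosterol, ergosterol or stigmasterol. The study compared each of the other livers with the low sitosterol liver, and the high with the low sitosterol adrenal. Each group was 1 mouse, and strain and sterol doses are not given in the sources used here. Nothing was therefore tested across genes and no p-value is given. Each 95% interval below covers counting error between 2 libraries, not variation between mice or the division of reads among near-identical copies.

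Major urinary proteins are lipocalins, proteins with a barrel-shaped pocket for small hydrophobic molecules. Hepatocytes secrete them into blood, the kidney passes them into urine, and there they release volatile pheromones slowly or act as signals themselves. Male liver makes more of them than female liver, under pulsed growth hormone acting through the transcription factor STAT5B, with input from androgen, thyroid hormone and glucocorticoid. The genes form a central class of very similar copies and a few more distant peripheral ones, among them Mup20, which encodes the male pheromone darcin.

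Library totals ran from 41546507 to 50573364 estimated counts. Abcg8 itself had 51 counts in the liver with low sitosterol, 490 with high sitosterol, 394 with ergosterol and 788 with stigmasterol, and 2 and 3 in the adrenals. Which part of the gene was deleted is not given here, so these counts check no label. The Y-linked genes Eif2s3y and Ddx3y, at 24.6 to 39.2 scaled CPM in the livers, had 0 to 3 counts in the adrenals, which are also labelled male. These genes do not bear out that label for the adrenals, so livers and adrenals may differ in sex as well as tissue. Hepatocyte genes filled the livers, with Alb between 35989 and 59322 TPM. Adrenal cortex markers had a median level of 0.0923% of the low sitosterol adrenal in the low sitosterol liver and of 0.0035% to 0.0112% in the other livers. That low sitosterol liver is the control of all 3 liver comparisons, and the part of these markers in the Mup values was not tested.

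All 10 genes lie on the minus strand of chromosome 4 in GRCm38, from Mup7 (chr4:60066469-60070475) to Mup21 (chr4:62147932-62150863), as protein-coding genes of GENCODE M21. Mup15 (chr4:61435790-61439743) and Mup20 (chr4:62050234-62054158) lie between them. The coding sequences of the 7 central members, Mup1, Mup7, Mup10, Mup14, Mup15, Mup17 and Mup19, were 540 bases long and 98.5% to 99.4% identical over their 21 pairs, with a median of 98.9%. The 3 peripheral members, Mup3 (552 bases), Mup20 and Mup21 (543 bases each), shared 87.0% to 94.7% with each other and 82.3% to 91.0% with the central ones.

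The stretch of coding sequence that bears on the Mup15 row is shown for Mup15, for Mup2, for the central members Mup1, Mup7 and Mup19 and for the 3 peripheral members. Each line is 60 bases of the coding strand from the GENCODE M21 transcripts, written 5′ to 3′, and capitals mark the bases that differ from Mup15.
Mup15: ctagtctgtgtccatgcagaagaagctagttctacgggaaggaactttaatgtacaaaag
Mup2: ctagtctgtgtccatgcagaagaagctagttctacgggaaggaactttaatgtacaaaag
Mup1: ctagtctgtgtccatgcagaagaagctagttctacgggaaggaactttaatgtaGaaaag
Mup19: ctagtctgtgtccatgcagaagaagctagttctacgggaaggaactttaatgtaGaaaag
Mup7: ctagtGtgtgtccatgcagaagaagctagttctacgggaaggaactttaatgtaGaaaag
Mup20: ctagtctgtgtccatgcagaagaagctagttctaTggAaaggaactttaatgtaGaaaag
Mup3: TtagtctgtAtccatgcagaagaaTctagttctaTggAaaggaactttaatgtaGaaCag
Mup21: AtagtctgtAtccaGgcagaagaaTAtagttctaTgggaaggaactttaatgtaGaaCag
On GRCm38 these are the minus strand of chr4:61439537-61439596 for Mup15, chr4:60139691-60139750 for Mup2, chr4:60501754-60501813 for Mup1, chr4:61782063-61782122 for Mup19, chr4:60070205-60070264 for Mup7, chr4:62053951-62054010 for Mup20, chr4:62087124-62087183 for Mup3 and chr4:62150654-62150713 for Mup21. The substitution C91G, with Mup15's base first and positions counted from 1 at the first coding base of Mup15, separated Mup15 from all 9 other members. Mup2, which is no member, had the same base as Mup15 and no difference over the 60 bases.

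The authors' counts were estimates that divide reads among transcripts, and the submitters' processing notes name kallisto, which by default matches words of 31 bases. The words found in a row's transcripts and in no other GENCODE M21 transcript, its private words, therefore mark reads that belong to that row alone. They do not mark every such read, since a read without them may still join words that no other transcript holds together. A row with 0 private words may thus still have reads of its own, and how many was not tested. Mup3 had 766 private words of 1096 and Mup21 had 428 of 647. Mup20 had 319 of 898, and 460 of its words were also in the pseudogene Mup-ps19. Among 5 of the central members the private words ran from 472 of 1584 in Mup1 down to 106 of 1062 in Mup7. Mup15 had 0 of 895 and Mup19 had 0 of 1034. Mup2 held 793 of the Mup15 words, Mup7 held 71 of the rest and Mup13 the last 31. Of the Mup15 words, 31 occurred in no other member, and all of them spanned coding position 91. The 2 Mup rows Mup9 and Mup16 held all words of Mup19, 899 and a further 135. Values of the central rows are thus uncertain one by one, and the sum of the 10 rows is given beside them.

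**Figure D1:**
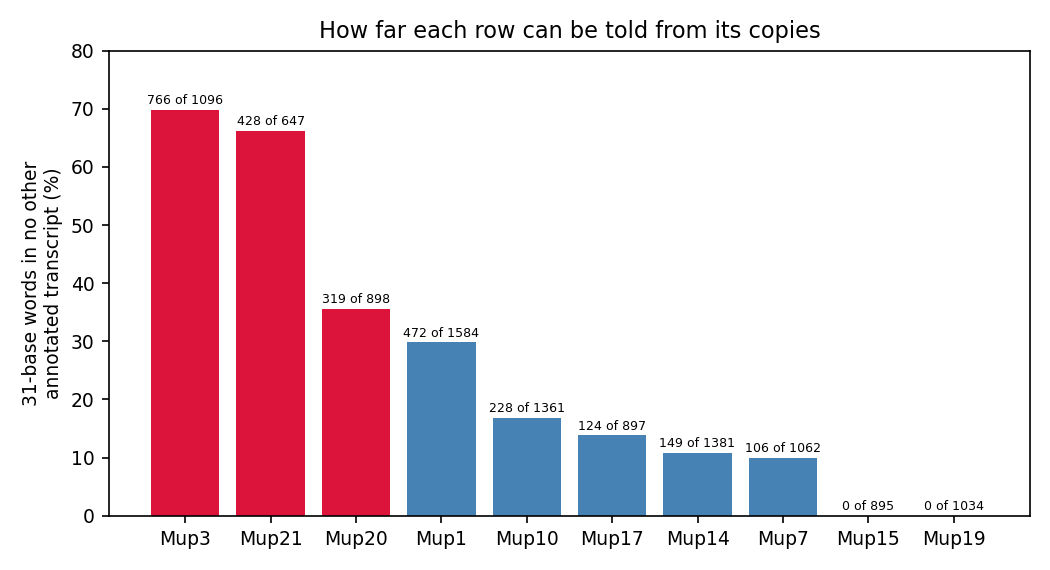
Share of each member's 31-base words that occur in no other annotated transcript, in percent, with the counts above the bars; red bars are the peripheral members and blue bars the central ones. Mup3 and Mup21 stand highest, and Mup15 and Mup19 have no private word.

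In the livers the summed level of the 10 rows was highest with low sitosterol, lower with ergosterol, lower again with high sitosterol and lowest with stigmasterol. The sum was 81146 scaled CPM with low sitosterol, 13581 with high sitosterol, 27321 with ergosterol and 3921 with stigmasterol, where scaled CPM are counts relative to the library total (CPM) after TMM scaling among the livers. The rows took 6.76% of all counts in the low sitosterol liver, 1.30% with high sitosterol, 2.55% with ergosterol and 0.529% with stigmasterol. In TPM, which is per transcript length, the sum was 97833, 19729, 42857 and 8640.3 in the same order.

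Against low sitosterol, the sum was 5.97-fold lower with high sitosterol, a log2 ratio of -2.58 (95% interval -2.58 to -2.58). It was 2.97-fold lower with ergosterol, at -1.57 (-1.57 to -1.57), and 20.7-fold lower with stigmasterol, at -4.37 (-4.38 to -4.37). The medians over all 13378 analysed genes were -0.05, 0.02 and 0.08 in these 3 comparisons, which share the low sitosterol control. Scaling to total counts moved those medians by 0.20, 0.16 and 0.69 and TPM moved them by 0.26, 0.34 and 0.86, so the sum is best read relative to them. Relative to the median gene it was at -2.53, -1.59 and -4.45 with TMM and at -2.52, -1.55 and -4.44 with TPM. Taking the median away cancels any factor common to a whole library, so this likeness is no check on the scaling. The other 38 Mup rows, at 6876, 1063, 2920.0 and 197 scaled CPM, had log2 ratios of -2.69, -1.24 and -5.12.

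All 10 members reached 1 CPM in at least 1 liver and were analysed. A gene was counted as lower at a ratio of 2-fold or more with an interval excluding equality. With high sitosterol 9 of the 10 members were lower, as were 4.3% of all analysed genes, and Mup10 was on neither side. With ergosterol 7 were lower against 5.82% of all genes, while Mup10, Mup17 and Mup19 were on neither side. With stigmasterol all 10 were lower against 7.8% of all genes. No member was higher in any of the 3, where 8.66%, 6.03% and 21.6% of genes were. The first and the last count include the Mup15 zeros that chose the family and support nothing. The members' median log2 ratios were -3.18, -1.53 and -5.90, and Mup15 at its lower bound leaves these medians as they are.

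**Figure D2:**
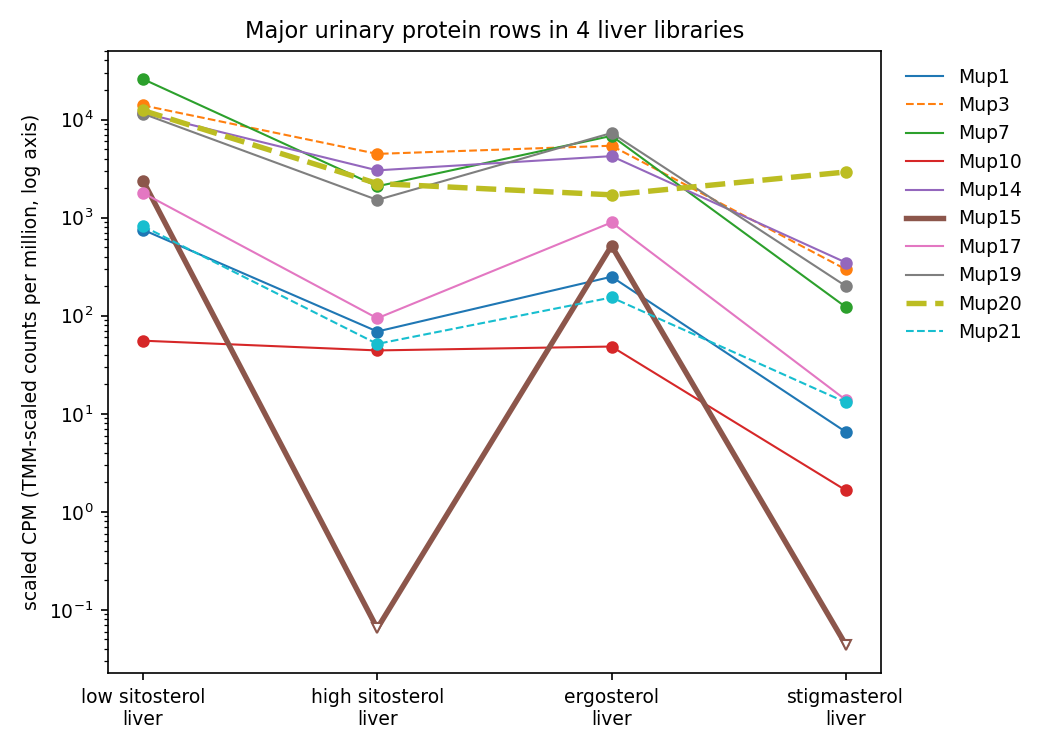
Level of each member in the 4 livers, in scaled CPM on a log axis; solid lines are central members, dashed lines peripheral ones, and open triangles mark Mup15 at 0, drawn at the level that 3 counts would give. The low sitosterol liver holds the highest point of every row, and Mup20 is the row whose lowest point is not in the stigmasterol liver, apart from Mup15 with 2 zeros.

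Mup7 was the most abundant member in the low sitosterol liver at 29705 TPM. Its scaled CPM were 25881 with low sitosterol, 2086 with high sitosterol, 6818 with ergosterol and 122 with stigmasterol. The log2 ratios to low sitosterol were -3.63 (95% interval -3.64 to -3.62), -1.92 (-1.93 to -1.92) and -7.72 (-7.76 to -7.69), the last a 211-fold lower level. It thus went from 31.9% of the members' counts in the low sitosterol liver to 3.12% in the stigmasterol liver.

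Mup14 and Mup1 are central copies that share most of their words with each other or with Mup11. Mup14 stood at 11669 scaled CPM with low sitosterol, 3033 with high sitosterol, 4235 with ergosterol and 348 with stigmasterol, with log2 ratios of -1.94, -1.46 and -5.07. Mup1 stood at 752, 69.0, 249.6 and 6.53 scaled CPM, with log2 ratios of -3.45, -1.59 and -6.85. The order of the 4 livers was the same for both as for the family sum.

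Mup15 was at 2384 scaled CPM (97573 counts) with low sitosterol and at 516 (23005 counts) with ergosterol. In the high sitosterol and stigmasterol livers it was at 0, where 3 counts would be 0.0648 and 0.0440 scaled CPM. The deposited estimates there were 0.000172 and 7.34e-07 counts, not exact zeros. Against the floor of 3 counts per library, the estimate was at least 36801-fold lower with high sitosterol and at least 54174-fold lower with stigmasterol. That floor allows for counting error only, not for the division of reads between Mup15 and other copies, so it does not bound the Mup15 transcript. With ergosterol the log2 ratio was -2.21 (95% interval -2.23 to -2.19). These values are the pattern by which the family was picked.

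Mup2, the row that shares the Mup15 base at coding position 91, did not reach 0 in the same livers. It had 16173 counts with low sitosterol, 2221 with high sitosterol, 9948 with ergosterol and 825 with stigmasterol. In scaled CPM Mup2 stood at 395, 48.0, 223 and 12.1 in that order. Mup15 and Mup2 together, a sum chosen after their values were seen, stood at 2779, 48.0, 739.7 and 12.1, so with high sitosterol and stigmasterol the sum is Mup2 alone. This sum was 57.9-fold lower with high sitosterol and 229.5-fold lower with stigmasterol. Without Mup15 the family sum had log2 ratios of -2.54, -1.56 and -4.33, close to those with it.

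Mup19, the other row with no private word, was less lowered by ergosterol than the family sum. Its scaled CPM were 11474 with low sitosterol, 1515 with high sitosterol, 7292 with ergosterol and 200.4 with stigmasterol, and its log2 ratios were -2.92, -0.65 (95% interval -0.66 to -0.65) and -5.84. Mup17 stood at 1785, 94.1, 893 and 13.8 scaled CPM, with log2 ratios of -4.25, -0.999 (-1.02 to -0.98) and -7.01. Its ergosterol ratio, before rounding just under 2-fold, kept it out of the count of lower members.

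Mup10, the least abundant member in the low sitosterol liver, was nearly level across the first 3 diets. It had 2276 counts with low sitosterol, 2049 with high sitosterol, 2159 with ergosterol and 113 with stigmasterol, or 55.6, 44.2, 48.5 and 1.66 scaled CPM. The log2 ratios were -0.33 (95% interval -0.42 to -0.24), -0.20 (-0.28 to -0.11) and -5.06 (-5.35 to -4.79). On the TPM scale the first and the second changed sign, to 0.05 and 0.22, so no direction is given for Mup10 with high sitosterol or ergosterol. Only the stigmasterol liver was at least 2-fold lower.

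The peripheral members have larger shares of private words than the central ones. Mup3 and Mup21, at 69.9% and 66.2%, can be read row by row with less doubt. Mup20, at 35.5%, is close to the central Mup1 at 29.8% by this measure, which also counts words shared with Mup rows outside the 10 and with other genes. Among the members alone, 718 of the 898 Mup20 words occurred in no other member, as did 840 of 1096 in Mup3. In Mup21 it was 450 of 647, and in Mup1 528 of 1584. Mup3 stood at 13950.1 scaled CPM with low sitosterol, 4465 with high sitosterol, 5408 with ergosterol and 297 with stigmasterol. Its log2 ratios were -1.64 (95% interval -1.65 to -1.64), -1.37 (-1.37 to -1.36) and -5.55 (-5.58 to -5.53). Mup21 stood at 818, 51.6, 153 and 13.1 scaled CPM, and its log2 ratios were -3.99 (-4.05 to -3.93), -2.41 (-2.45 to -2.38) and -5.97 (-6.07 to -5.87). Both kept the order of the family sum, with stigmasterol lowest.

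Mup20, the darcin gene, had another order, with stigmasterol second and ergosterol lowest. It stood at 12377 scaled CPM with low sitosterol, 2224 with high sitosterol, 1707 with ergosterol and 2918 with stigmasterol. The log2 ratios to low sitosterol were -2.48 (95% interval -2.49 to -2.47), -2.86 (-2.87 to -2.85) and -2.08 (-2.09 to -2.08), or 5.57-, 7.25- and 4.24-fold lower. In TPM the stigmasterol ratio was -1.16, and with total counts it was -1.39. With stigmasterol Mup20 thus stood apart in size, since Mup10, the next least lowered member, was 33.4-fold lower. Mup-ps19, the pseudogene that shares words with it, had 480, 148, 86 and 225 counts in the same livers, against 506657, 103015, 76069 and 198966 for Mup20.

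**Figure D3:**
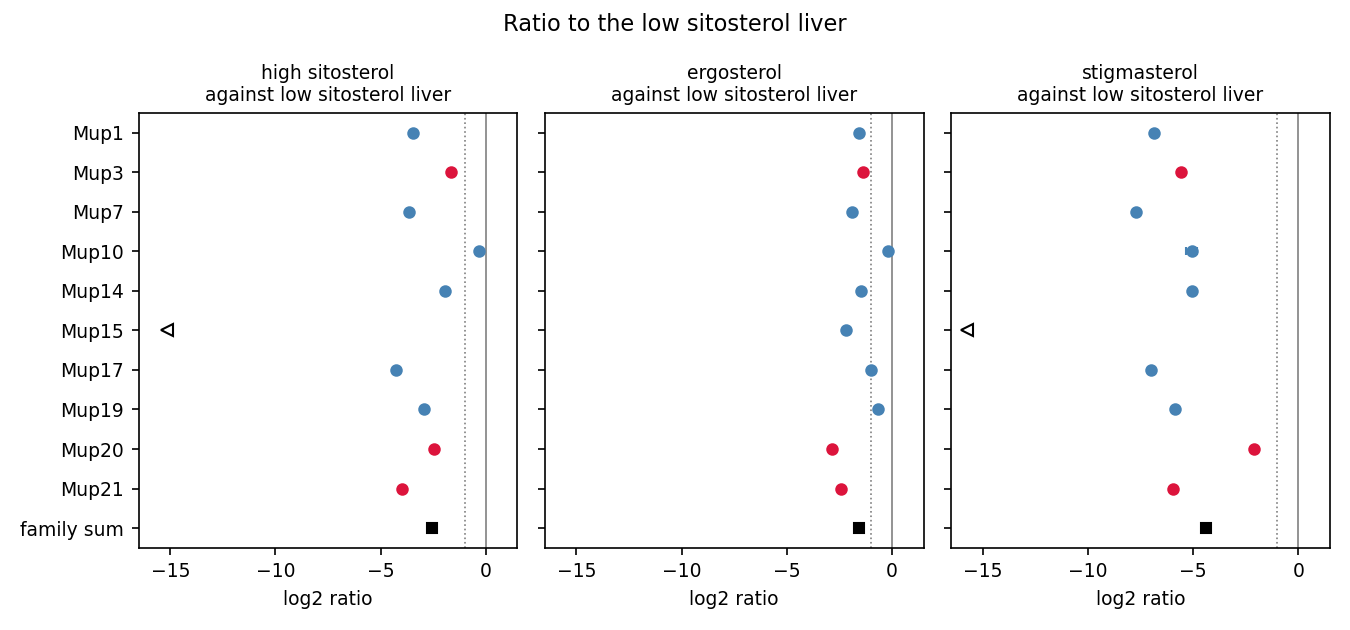
Log2 ratio of each member and of the family sum (black square) to the low sitosterol liver, 1 panel per comparison, with 95% intervals of counting error that are mostly narrower than the points; blue points are central members, red points peripheral ones, open triangles the bound for Mup15 at 0, and the dotted line is 2-fold lower. In the stigmasterol panel Mup20 lies at -2.08 and the other members at -5.06 or below.

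The make-up of the family therefore differed between livers. Mup20 gave 15.3% of the members' counts with low sitosterol, 16.4% with high sitosterol, 6.25% with ergosterol and 74.4% with stigmasterol (95% exact binomial interval of the last, 74.3% to 74.6%). The 7 central members gave 66.5% with low sitosterol, 50.4% with high sitosterol, 73.4% with ergosterol and 17.7% with stigmasterol. Per transcript length, the Mup20 share of the members' TPM was 14.5%, 15.6%, 6.01% and 73.4%. The highest member in TPM was Mup7 with low sitosterol (29705), Mup3 with high sitosterol (6186), Mup19 with ergosterol (11049) and Mup20 with stigmasterol (6338). Without Mup20 the sum of the other 9 rows was 68769, 11357, 25613 and 1003 scaled CPM, and its stigmasterol ratio became -6.10 in place of -4.37. Leaving out Mup20 alone thus took the stigmasterol value of the sum from 20.7-fold to 68.6-fold lower.

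**Figure D4:**
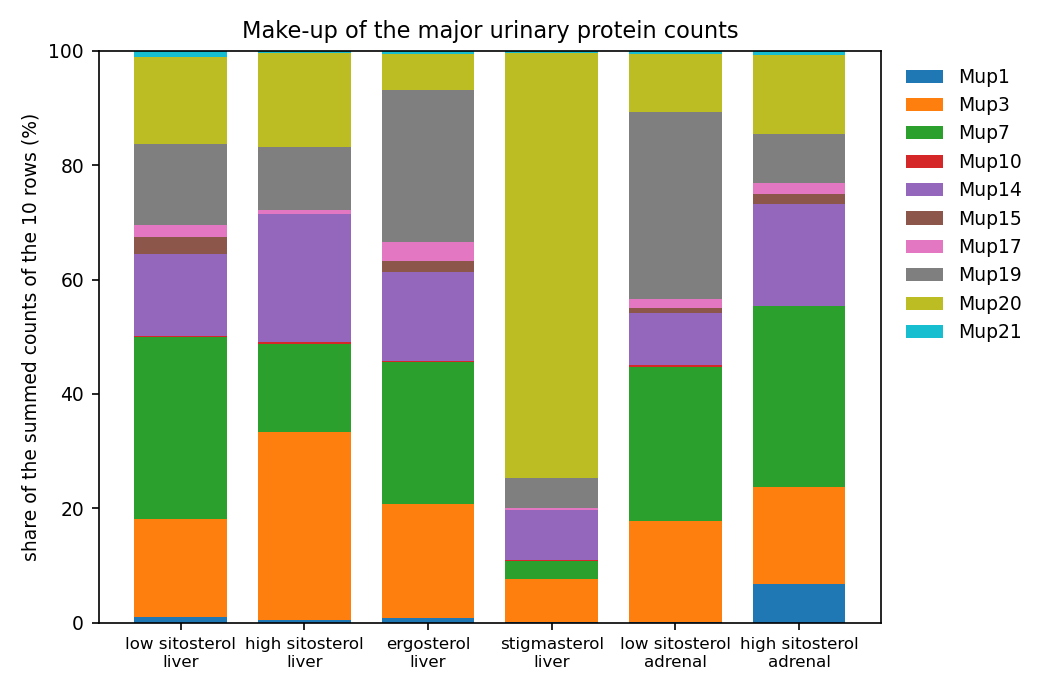
Share of each member in the summed counts of the 10 rows, in percent, for the 4 livers and 2 adrenals. Mup20 takes 74.4% of the stigmasterol bar and 6.25% to 16.4% of the other bars of liver.

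The livers with added sterols were also set side by side. Sitosterol and stigmasterol are plant sterols, the second with an additional double bond in its side chain, and ergosterol is the main fungal sterol. Doses are not in the sources, so these are differences between livers and not between compounds at matched dose. The family sum was 2.01-fold higher with ergosterol than with high sitosterol, 3.46-fold lower with stigmasterol than with high sitosterol and 6.97-fold lower with stigmasterol than with ergosterol.

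In ergosterol against high sitosterol, 6 of the 10 members were higher, against 6.18% of all genes, and none was lower, against 8.96%. The 6 include Mup15, called on the zero that chose the family, and the other 5 were Mup1, Mup7, Mup17, Mup19 and Mup21. Mup17 was 9.49-fold higher there and Mup19 4.81-fold higher, while Mup3, Mup10, Mup14 and Mup20 stayed within 2-fold. In stigmasterol against high sitosterol, 8 were lower against 5.6% of all genes, with Mup15 at 0 in both and Mup20 at a log2 ratio of 0.39 (95% interval 0.38 to 0.40). In stigmasterol against ergosterol, 9 were lower against 7.13% of all genes, again with the Mup15 zero among them, and Mup20 was at 0.77 (0.76 to 0.79). None was higher in either, where 16.4% and 19.4% of genes were. For Mup20 that call depends on the scaling, since its TPM ratios were 1.04 against high sitosterol and 1.30 against ergosterol, and total counts gave 0.89 and 1.31. In scaled CPM, for every member other than Mup20 and Mup15, the livers ranked low sitosterol, ergosterol, high sitosterol, stigmasterol, and each neighbouring pair differed beyond counting error. In TPM the order of Mup10 was not kept.

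In the adrenals the family sum was 26.5 scaled CPM with low sitosterol and 18.4 with high sitosterol, from 1096 and 890 counts. In TPM the sum was 55.6 and 37.6, which is 0.0568% and 0.0385% of the low sitosterol liver. Abundant hepatocyte products had a median of 0.0415% and 0.0426% of that liver in the same 2 adrenals. Relative to that 1 liver, the markers of liver cells and the family thus stood at like small fractions. Other references gave other pictures. The family sum was 455% and 270% of Alb in the low and high sitosterol adrenals, against 272% and 33.3% in the livers of the same diets. Relative to the abundant hepatocyte products together it was 6.73% and 7.30% in the adrenals, against 49.2% and 7.77% in those livers. The part of liver RNA in the adrenal values was not tested.

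Of the 10 members 6 reached 1 CPM in an adrenal, and Mup10, Mup15, Mup17 and Mup21 did not. Between the adrenals Mup19 was lower with high sitosterol, with 358 and 75 counts and a log2 ratio of -2.47 (95% interval -2.86 to -2.12), where 2.31% of 14224 genes were lower. Mup1 was higher, where 3.82% of genes were, with 1 count on low and 60 on high sitosterol and a log2 ratio of 5.11 (interval 3.15 to 11.01). Mup3, Mup7, Mup14 and Mup20 stayed within 2-fold, with 101 to 295 counts each in the low sitosterol adrenal and 124 to 281 in the high sitosterol adrenal. The family sum was at -0.53 (-0.66 to -0.40), a smaller difference than that of Mup1 or Mup19.

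Other products of hepatocytes gave a measure of the liver cells in each sample. In bulk tissue, fewer hepatocytes and less transcript per hepatocyte cannot be told apart. Albumin (Alb) was at 35989 TPM with low sitosterol, 59322 with high sitosterol, 50473 with ergosterol and 36316 with stigmasterol. The family sum was 272% of the Alb level with low sitosterol, 33.3% with high sitosterol, 84.9% with ergosterol and 23.8% with stigmasterol. The family was thus above Alb in 1 of the 4 livers. Relative to 20 abundant hepatocyte products together it was 49.2%, 7.77%, 20.5% and 4.89%.

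**Figure D5:**
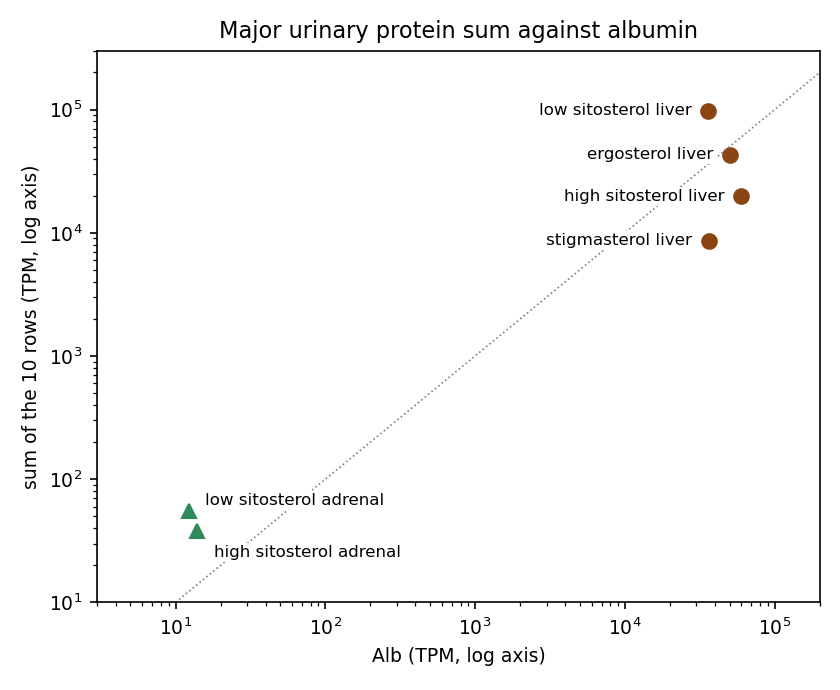
Family sum against Alb in each library, both in TPM on log axes; brown circles are livers, green triangles adrenals, and the dotted line marks equal levels. Alb lies between 35989 and 59322 TPM in the livers, while the family sum ranges from 8640.3 to 97833 TPM.

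With high sitosterol 1 of those 20 products was higher (Hpx, the heme carrier hemopexin, at 1.14) and none lower, with a median of -0.17. With ergosterol 1 was lower, Serpina3k at -1.44, with a median of -0.34. With stigmasterol 12 were lower, with a median of -1.13, among them the lipid carriers Apoa2 at -1.70 and Fabp1 at -2.39. In TPM the median level of the 20 products was 108%, 103% and 87.5% of the low sitosterol liver in the 3 livers, so the size of the stigmasterol difference depends on the scaling. Of all analysed genes, 8.66%, 6.03% and 21.6% were higher and 4.3%, 5.82% and 7.8% lower in the 3 livers. Markers of other cells moved in the same livers. Of 9 macrophage markers, 8 were higher with high sitosterol, 3 with ergosterol and 3 with stigmasterol. Those lower numbered 1, 0 and 3, and the median log2 ratios of the list were 1.46, 0.80 and 0.22. Cholangiocyte markers were higher in 2 of 6, 0 of 6 and 6 of 6, and their summed level was 42.5 TPM with low sitosterol, 50.9 with high sitosterol, 33.0 with ergosterol and 1188 with stigmasterol. Stellate and endothelial markers were higher in 0, 0 and 4 of 10 and lower in 0, 1 and 1, with summed levels from 116 to 375 TPM. No marker of these lists was at 0 in a liver, and their part in the Mup values was not tested.

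Genes around growth hormone, the main regulator of the family in males, were read from a list of 12. Of all analysed genes, 8.66%, 6.03% and 21.6% were higher and 4.3%, 5.82% and 7.8% lower with high sitosterol, ergosterol and stigmasterol. With high sitosterol none was higher and 4 were lower, with a median of -0.43. With ergosterol 2 were higher and 3 lower, with a median of -0.22, and with stigmasterol 1 was higher and 6 lower, with a median of -0.98. Socs2, a feedback inhibitor and target of the pathway, was at 63.0 scaled CPM with low sitosterol, 14.5 with high sitosterol, 26.7 with ergosterol and 22.3 with stigmasterol. Cish, another target and inhibitor, had log2 ratios of -1.99, -1.27 and -1.11, and the liver transcription factor Onecut1 had -2.93, -3.26 and -3.40. These 3 genes were lower in all 3 livers.

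Other genes around growth hormone did not all move in the same manner. Of those shown here, Ghr and Stat5b were added after their values were seen, so they do not stand for the list. The receptor gene Ghr was lower with stigmasterol, at -1.64, and at -0.51 and -0.18 with high sitosterol and ergosterol. Stat5b, the transcription factor, was at -0.23, 0.89 and 0.40, within 2-fold in each liver. Bcl6, a repressor in male liver, was lower with high sitosterol (-1.03), higher with ergosterol (1.78) and at 0.21 with stigmasterol. Among hormone receptor genes, Esr1, an estrogen receptor, was higher with high sitosterol (1.37) and Thrb, a thyroid hormone receptor, lower with stigmasterol (-1.42). Nr3c1, the glucocorticoid receptor, stayed at 32.9 to 41 scaled CPM.

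Other male-biased liver genes were lower in 11 of 15 with high sitosterol, 7 of 15 with ergosterol and all 15 with stigmasterol. Their medians were -1.35, -0.72 and -2.73, and 4.3%, 5.82% and 7.8% of all analysed genes were lower. Hsd3b5, a steroid-metabolising enzyme, stood at 368 scaled CPM with low sitosterol, 58.4 with high sitosterol, 132 with ergosterol and 0.895 with stigmasterol, the order of the Mup sum. Elovl3, a fatty acid elongase, did not share that order, at 393, 63.4, 524 and 19.9. Of 16 female-biased genes 9 were analysed, and 5 were higher with high sitosterol, 1 with ergosterol and 7 with stigmasterol, with medians of 1.03, -0.12 and 2.21. Cyp2a4, an enzyme of the cytochrome P450 family, was at 1.17, 198, 0.853 and 160.2 scaled CPM. Sult1e1, the estrogen sulfotransferase, was at 0.0489, 31.05, 0.404 and 6.31. Genes that passed only where they were high had to differ, so the female-biased counts support nothing.

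The family's relatives among the lipocalins had medians near or below 0, at 0.01, -0.17 and -0.55 over 9 analysed genes. With high sitosterol 3 were higher and 1 lower, with ergosterol 0 and 1, and with stigmasterol 3 and 3. The shares of all analysed genes were 8.66% and 4.3%, 6.03% and 5.82%, and 21.6% and 7.8%. Lcn2, an iron-related acute phase protein, stood at 6.89, 99.2, 2.81 and 172 scaled CPM. Rbp4, the carrier of retinol, stood at 4131, 2798, 3299 and 1611, with a log2 ratio of -1.36 for stigmasterol. Rbp4 thus had its lowest level in the same liver as the Mup sum, and Lcn2 its highest.

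Promoters were compared because most rows moved together. Of the 10 members, 8 matched a RefSeq promoter window of GRCm38.p6. Mup1 and Mup20 had no window, so nothing here covers Mup20, the row with another order of the livers. The central windows were 89.9% to 99.0% identical over 15 pairs, with a median of 95.2%, and the median between central and peripheral ones was 77.0%. Identity was scored over the overlap of each pair only, which was 165 to 217 columns for the central pairs with Mup7. The letters TTCNNNGAA, the core that STAT5 proteins bind, were in 0 of the 8 windows and in 8.30% of 32851 windows of all genes, counting both strands. Many of the 8 windows are near-identical and so are not separate looks, and sequence outside the windows was not searched. The 0 therefore does not show that these genes lack the letters. The letters TATATAA, chosen after the windows were seen, were in 7 of the 8 on either strand and in 3.24% of all windows. The Mup7 window lacked them. They began after the annotated start in Mup14 and 8 to 31 bases before it in the others, so the windows are not placed alike. A stretch of 30 bases around them is shown 5′ to 3′ for the 7 members, with the letters in capitals.
Mup3: gaaaccagagagTATATAAggacaagcaaa
Mup21: gaaaccagagagTATATAAggacaagcaaa
Mup10: gaactcagagatTATATAAggacaagcaaa
Mup14: gaacccagagagTATATAAggacaagcaaa
Mup15: gaacccagagagTATATAAggacaagcaaa
Mup17: gaacccagagagTATATAAggacaagcaaa
Mup19: gaacccagagagTATATAAggacaagcaaa
On the minus strand of GRCm38.p6 the stretch of Mup15 is chr4:61439712-61439741, that of Mup19 chr4:61782238-61782267, that of Mup3 chr4:62087311-62087340 and that of Mup21 chr4:62150832-62150861. Mup14, Mup15, Mup17 and Mup19 had the same 30 bases. A match describes letters only.

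The genes with the profile most like the family sum over the 4 livers were found among 8029 others at 10 scaled CPM or more, by the root mean square distance of centred log2 values. The nearest 5 were Adgrf1 at 0.31, Cyp7b1 at 0.37, Hcn3 at 0.37, Cyp1a2 at 0.43 and Cyp2c67 at 0.44. Cyp7b1, the oxysterol hydroxylase of bile acid synthesis and itself on the male-biased list, stood at 357, 72.7, 127 and 33.1 scaled CPM. Cyp1a2, an enzyme of drug metabolism, stood at 591, 228, 304 and 48.6. For Mup15, whose zeros enter the distance, the closest was Hsd3b5 at 6.31, a value that the zeros fix and that says nothing about likeness. For Mup20, searched after its values were seen, the nearest were Akr1b7 at 0.37, Mbd1 at 0.47 and Onecut1 at 0.48. Akr1b7 stood at 10.1, 1.45, 0.943 and 3.20 scaled CPM. Its highest level was in the low sitosterol liver, which also had the highest level of adrenal cortex markers, and the part of adrenal RNA in it was not tested. With 4 libraries these distances describe likeness in these livers only.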

How the data were processed

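For the 6 libraries, 4 of liver and 2 of adrenal gland, the authors deposited estimated counts in 1 table and TPM in another, both by gene symbol. The submitters' processing notes name the build mm10 and the tools kallisto 0.43.1, HISAT2 2.0.5 and Trimmomatic 0.33, with no role for any. The annotation and the joining of transcripts into genes are not given in the sources used here, so the GENCODE M21 words may differ from those the authors used. Libraries were made with a TruSeq kit, per the labels' protocols.

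Estimated counts were rounded, and 1 row naming no gene, with 0% of the counts, was left out. Totals of 41546507 to 50573364 put 3 counts at 0.0593 to 0.0722 CPM, the upper limit that a count of 0 allows. Counts were scaled by TMM within each tissue (edgeR 4.0.16, R 4.3.3), with factors of 0.83 (low sitosterol), 0.95 (high sitosterol), 0.93 (ergosterol) and 1.35 (stigmasterol) in liver and of 0.99 and 1.01 in adrenal. Genes were analysed where any library of the tissue reached 1 CPM. Log2 ratios used a prior count of 0.5 and exact conditional (Clopper-Pearson) 95% intervals, with scipy 1.17.1. PCR copies are not independent molecules, so these intervals and the limit show counting error alone. Higher and lower mean a ratio of 2-fold or more whose interval excludes equality. The procedure was tested on simulated data.

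Named genes were all members, up to 4 genes per list with the largest ratios at 10 scaled CPM or more, and the 5 nearest profiles. Ghr, Stat5b, Alb, Hpx, Mup2 and Mup-ps19 were added after their values were seen. The members and lists were chosen with earlier results of these data known. Alternatives were total-count, DESeq2 1.42.0 and TPM scaling, TMM without Mup rows, other sums, a 1.5-fold rule and, added after seeing the data, TMM from the 2 compared livers. Sequences came from GENCODE M21 transcripts and RefSeq promoter windows, aligned with Biopython 1.88.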

Additional observations from a re-analysis of the deposited data

Results flagged for a closer look

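Mup1 and Mup14 differed in opposite directions in the tissues with high against low sitosterol. Mup1 was lower in the liver, at a log2 ratio of -3.45, and higher in the adrenal, at 5.11, where the low sitosterol library had 1 count and the high sitosterol library 60. Mup14 was lower in the liver, at -1.94, and at 0.42 (95% interval 0.05 to 0.79) in the adrenal, from 101 and 158 counts. Each direction rests on 1 library per group, and the difference between the tissues was not tested. The livers and adrenals also differed in Y-linked genes, so sex and tissue cannot be told apart here. Mup1 and Mup14 share 875 words of 31 bases, and over both tissues the family sum kept its direction, at -2.58 in liver and -0.53 in adrenal.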

How the results depend on the processing

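The family sum kept its direction in the 4 comparisons under every alternative run. For high against low sitosterol in liver (-2.58) it was -2.38 with total counts, -2.57 with DESeq2 size factors, -2.31 with TPM, -2.59 with every Mup row, -2.98 with the 7 central members and -2.52 with TMM factors from the 2 compared livers, chosen after seeing the data. For ergosterol (-1.57) it was -1.41, -1.56, -1.19, -1.54 and -1.43 under the first 5 of these, and for stigmasterol (-4.37) -3.68, -4.42, -3.50, -4.42 and -6.28. The percentage of higher among all called genes was 66.8, 50.9 and 73.5 in these comparisons, but 78.4, 65.1 and 92.9 with total counts and 81.5, 80.4 and 95.2 with TPM. Members lower numbered 9 and 10 with high sitosterol and stigmasterol under all settings, and 7 with ergosterol, with a range of 6 (TPM) to 9 (1.5-fold rule). Of 275 values of single members under alternatives, 2 changed sign, both of Mup10 with TPM. No paired analysis was possible because each group is 1 library, and no library could be left out for the same reason. Depth limits little in the livers, but the adrenal rows rest on 0 to 358 counts. What limits the livers is that 1 mouse stands for each diet and that reads of the central copies cannot be assigned with certainty.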
